A study of Mus musculus with 24 samples.

Results

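KO late colons were set against KO early colons, that is, the colon epithelium of KO chimeric mice 8 weeks after chimerism against that of KO chimeric mice 2 weeks after it. The members are the colon libraries that the labels give these 2 groups, 3 KO late and 4 KO early, 7 of the 24 libraries of the series. Each library came from 1 C57BL/6 mouse aged 8 to 14 weeks and held RNA of epithelial cells sorted from colon as CD45-negative cells with a tomato reporter under Villin, a gene of the epithelial brush border. The colons of 2 irradiated WT mice (8 weeks) and of 3 non-irradiated WT mice (untreated) served as the level without the KO, and the ileum of the same 7 KO mice as the other gut segment. The labels say only KO, while the series title speaks of gut macrophages that lack the IL-10 receptor alpha chain. The design text names colonic macrophages, although all samples are labelled as epithelium. No WT mouse was taken 2 weeks after chimerism, so time since irradiation and time since the KO graft cannot be told apart in KO late against KO early. No label names the gene deleted in the graft, and sorted epithelium is not the graft, so no transcript here checks the genotype.

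As background, IL-10 restrains gut macrophages, and macrophages that cannot sense it make IL-23, which drives lymphocytes to release IL-22. IL-22 acts on the epithelium, which answers with antimicrobial proteins, fucosylated glycans and chemokines. The epithelium itself is renewed from crypt stem cells and holds absorptive colonocytes, mucus-secreting goblet cells, hormone-secreting enteroendocrine cells and chemosensory tuft cells. Interferons, IL-1 and wounding each induce further gene sets in it.

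The colon libraries held 8.32 to 18.6 M reads in genes. Values are normalised reads, the read count of a gene scaled by 1 size factor for each library. They are listed in the order of mice 49, 50 and 57 for KO late, 100, 117, 118 and 120 for KO early, and 59 and 61 (irradiated) then 72, 73 and 75 (non-irradiated) for WT. Differences are log2 differences of value + 1 with the standard error (SE) of a limma fit over all 12 colon libraries, in which 19145 genes were tested. Vil1, the gene of the reporter's promoter, was abundant in all libraries, with 11996, 14948 and 25685 normalised reads in KO late colons, against 21254, 10192, 22127 and 22889 in KO early colons and 20506, 16267, 17689, 31636 and 13225 in WT colons. Markers of other cells were low but present. Ptprc, which encodes CD45, the antigen excluded by the sort, had 394, 436 and 159 normalised reads in KO late colons, against 203, 249, 200.4 and 183 in KO early colons and 169, 268, 157, 238 and 346 in WT colons. Cd3e of T cells had 24.8, 36.6 and 16.8 in KO late colons, against 14.3, 21, 17.1 and 17.4 in KO early colons. Gzma, granzyme A of cytotoxic lymphocytes, had 90.4, 164 and 36.5 in KO late, against 40.5, 18, 54.4 and 22.3 in KO early and 18.1, 40.1, 26.8, 40.4 and 16.9 in WT colons. It was the only 1 of 17 leukocyte markers tested at an unadjusted p under 0.05, but 14 of the 17 had a higher mean in KO late colons and their median difference was 0.52, or 0.02 with the receptor reads described next as a covariate. Together the 17 leukocyte markers came to 41.3 to 116.6 reads per M in KO late colons, 40.4 to 62.9 in KO early colons and 29.6 to 73.3 in WT colons. For 17 myeloid and neutrophil markers, the sums were 173 to 246 reads per M in KO late, 171 to 320 in KO early and 99.2 to 186 in WT colons, and 0 of 17 had such a p, with a median of 0.21. The medians were 0.41 for 16 stromal and endothelial markers and 0.50 for 9 enteric neuron and glia markers, so markers of other cells lay higher in KO late colons together with the immune gene groups, and their part in those was not tested. The 12 epithelial identity genes had a median log2 level, relative to the mean of the 5 WT colons, of -0.62, -0.54 and 0.62 in KO late colons, against 0.43, -0.54, 0.22 and 0.20 in KO early colons, so that KO late mouse 57 stood above mice 49 and 50. Reads in olfactory and vomeronasal receptor genes, which gut epithelium is not known to use, made up 997, 968 and 701 reads per M in KO late colons, against 389, 651, 532 and 480 in KO early colons and 208, 549, 202, 205 and 635 in WT colons. All 3 KO late libraries thus lay above all KO early libraries in this measure, and its part in the results was not tested beyond fits with it as a covariate. In bulk samples, fewer cells of a type and less RNA per cell cannot be told apart.

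One gene passed the test, Pyy, the gut hormone peptide YY, which fell. It was 1 of 19145 genes tested, or 0.00522%, at an adjusted p under 0.05 (limma, Benjamini-Hochberg over all genes tested). The next genes had an adjusted p of 0.0934, among them Il1a, Tnfrsf11b and Sema3e, all with higher values in KO late colons, and Lpo, lactoperoxidase, with 76.8, 95.8 and 80.9 normalised reads in KO late, against 220.1, 188, 273 and 322 in KO early and 125, 161, 195, 119.7 and 164 in WT colons (-1.53 ± 0.26). At an unadjusted p under 0.05, 614 genes (3.21%) were higher and 1451 (7.58%) lower in KO late colons, 10.8% of the genes tested in all, a level at which single genes are not established. Leaving out 1 KO mouse moved these counts to 277 to 1441 higher and 495 to 2580 lower, both lowest without KO late mouse 50 and highest without KO late mouse 57. With the receptor reads as a covariate they were 826 higher and 550 lower, so lower genes no longer outnumbered higher ones. The values of the groups did not overlap for 1396 higher genes (7.29%) and 1239 lower genes (6.47%). These shares over all genes, from the fit without the covariate, are the level to set the list counts against. For 7647 genes (39.9%) the 95% confidence interval of the difference lay within -1 and 1, so a difference of 2-fold or more either way was outside it. They are called bounded here, and 7563 of them (39.5% of the genes tested) had in addition no unadjusted p under 0.05.

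The next question was which of the genes that differed between KO and WT went further from WT, stayed or came back. Genes were first chosen by the contrast of all 7 KO colons with all 5 WT colons, weighted by numbers of mice. It is uncorrelated with KO late minus KO early in this fit. As 3 of the 5 WT mice were not irradiated, the contrast cannot tell an effect of the KO from one of irradiation. That contrast called 821 genes (4.29%), 288 higher (1.5%) and 533 lower (2.78%) in KO. Of the 821, 184 (22.4%) differed further from WT at 8 weeks at an unadjusted p under 0.05 and are called progressing, 24 (2.92%) differed less from WT at that threshold and are called fading, and 312 (38.0%) were bounded with no such p. The remaining 301 (36.7%) were undetermined, with an interval too wide to place them. Among the 18324 genes that the contrast did not call, 7.63% had a difference in the same direction as KO minus WT and 2.5% in the opposite direction at the same threshold. Both contrasts use the same spread per gene, so a small spread favours a low p in both. The shares of called and uncalled genes are therefore no test of an excess. The 288 KO-higher genes held 74 progressing, 9 fading, 68 bounded and 137 undetermined genes. The 533 KO-lower genes held 110 progressing, 15 fading, 244 bounded and 164 undetermined genes. The number called rested on single WT mice, with 404 without mouse 73 and 6003 without mouse 75, which had the lowest quality weight of all colon libraries (0.178), and 112 with the 2 irradiated WT mice alone. Without KO early mouse 118, 225 of 539 called genes were progressing (41.7%), and with the receptor reads as a covariate 92 of 442 (20.8%). Those 442 were 352 higher and 90 lower in KO, so the balance of higher and lower genes turned with the covariate.

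**Figure D1:**
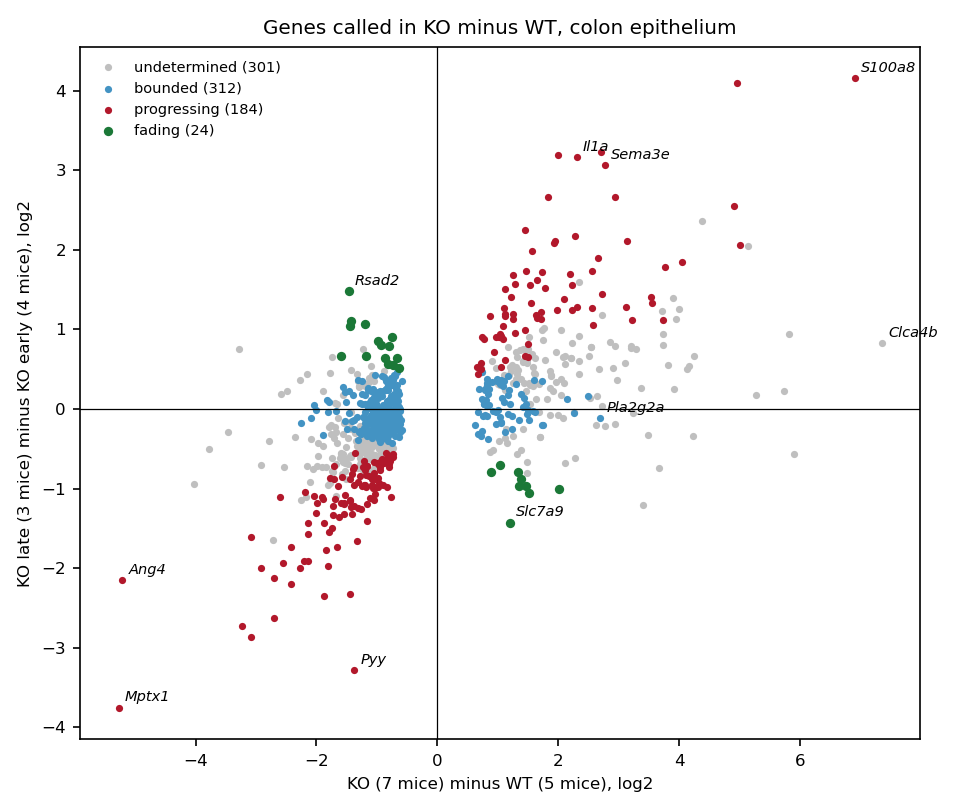
Each point is 1 of the 821 genes called in KO minus WT, with the log2 difference of 7 KO from 5 WT colons on the horizontal axis and that of KO late from KO early colons on the vertical axis, and colours for the 184 progressing, 24 fading, 312 bounded and 301 undetermined genes. Progressing genes fill the upper right and lower left, S100a8 and Mptx1 at their far ends, and the fading genes, such as Rsad2 and Slc7a9, sit in the other quadrants.

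Enteroendocrine cells gave the gene that passed the test and several of the progressing genes. Pyy had 2.5, 3.3 and 10.8 normalised reads in KO late colons, against 46.4, 45.7, 47.4 and 81.7 in KO early colons and 40.3, 37.9, 68.8, 46.6 and 82 in WT colons. Every KO late colon lay below every other colon, while the KO early values lay within the WT range. The difference was -3.28 ± 0.42 (adjusted p = 0.0375, limma), with KO late minus WT at -3.25 and KO early minus WT at 0.03. In the ileum of the same mice Pyy had 120.1, 65.8 and 135.8 normalised reads in KO late, against 290.4, 31.8, 65.5 and 90.8 in KO early samples. Pyy lost its call without KO late mouse 49 (adjusted p = 0.365), without mouse 50 (0.170), and without KO early mouse 100 (0.153), 117 (0.0615) or 120 (0.135), with a difference of -2.94 to -3.81 whichever KO mouse was left out. The adjusted p was 0.0193 without mouse 118 and 0.00279 without mouse 57.

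Insl5, a hormone of the same colonic L cells, had 2.5, 5.8 and 3.9 normalised reads in KO late colons, against 16.9, 38.2, 13.2 and 34.9 in KO early colons and 23.9, 32, 53.5, 18.7 and 45.8 in WT colons. The KO late values did not overlap the KO early ones. Chga, which encodes chromogranin A of secretory granules, had 97.9, 47.5 and 45.4 normalised reads in KO late colons, against 227, 240.0, 107 and 273 in KO early colons and 427, 574, 619, 948 and 743 in WT colons. Here the KO early colons already lay below all WT colons, and the KO late colons lay lower again, so the steps differed in order from those of Pyy. The differences were -2.32 ± 0.48 for Insl5 and -1.73 ± 0.35 for Chga, at adjusted p of 0.228 and 0.214. Nts, neurotensin, differed by -1.31 ± 0.41 and Sct, secretin, by -0.87 ± 0.40, both with overlapping groups. Of 25 enteroendocrine genes tested, 5 were lower and 0 higher at an unadjusted p under 0.05, set against 7.58% and 3.21% of all genes. The median of the 25 was -0.48, against 0.03 over all genes tested, and -0.81 to -0.01 over 19 alternatives. By their means 16 of the 25 were lower and 9 higher, and the genes named here are all from the lower side. By library the median log2 level of the list relative to WT was 0.10, -0.26 and -0.68 in KO late colons. In KO early colons it was -0.18, 0.36, -0.16 and 0.11, so the groups overlapped in the list as a whole. All 5 of the lower genes (Pyy, Nts, Insl5, Sct and Chga) were progressing. The count was 4 to 7 of 25 without single KO mice and 10 of 25 with the receptor covariate.

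**Figure D2:**
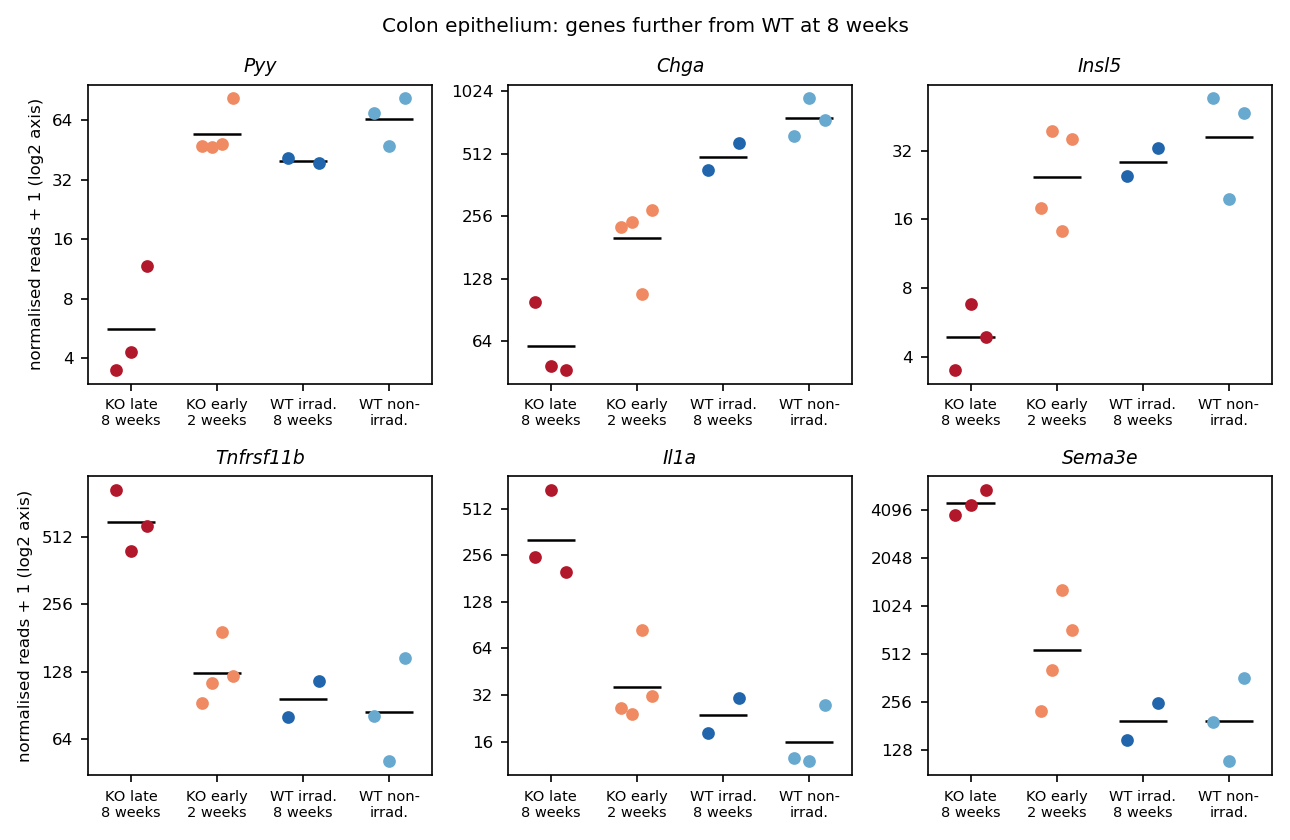
Dots are single colons and lines are group means on the log2 scale, with normalised reads + 1 on a log2 vertical axis, for Pyy, Chga, Insl5, Tnfrsf11b, Il1a and Sema3e in KO late, KO early, WT irradiated and WT non-irradiated mice. The 3 KO late values lie apart from the 4 KO early values in all 6 genes, and for Pyy the KO early values lie at the WT level.

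Among the protein-coding genes with higher values in KO late colons, Il1a, Tnfrsf11b and Sema3e came nearest to the threshold (adjusted p = 0.0934 for each, limma). Il1a, the alarmin IL-1 alpha, had 248, 681 and 200.2 normalised reads in KO late colons, against 25.3, 23.2, 83.1 and 30.7 in KO early colons and 17.3, 29.7, 11.5, 10.9 and 26.5 in WT colons. Tnfrsf11b encodes osteoprotegerin, the decoy receptor of RANK ligand, and had 832, 440.5 and 569 normalised reads in KO late colons, against 91.1, 113, 191 and 121 in KO early colons and 79, 114, 80.3, 49.7 and 146 in WT colons. Neither gene overlapped between KO late and KO early colons. For Il1a the difference was 3.17 ± 0.52 and for Tnfrsf11b 2.24 ± 0.37. Sema3e, a secreted semaphorin that binds plexin D1, had 3769, 4377 and 5465 normalised reads in KO late colons, against 223, 404, 1279 and 717 in KO early colons and 147, 252, 191, 107 and 358 in WT colons. Its difference was 3.06 ± 0.51, with KO late minus WT at 4.53 and KO early minus WT at 1.46, so that part of the distance from WT was present at 2 weeks. KO early mouse 118 had the highest KO early value in all 3 genes. Without that mouse all 3 passed the test, at adjusted p of 0.0153, 0.0285 and 0.0137 (limma). Leaving it out removes the KO early value nearest to the KO late ones. None of the 3 passed when any other single KO mouse was left out.

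Further progressing genes on the higher side included Tbc1d9, of a family of Rab GTPase-activating proteins, at 1.51 ± 0.26, and Ccdc88b at 2.66 ± 0.51. Serpinb11, of the clade B serpins, had 318, 305 and 225 normalised reads in KO late colons, against 21.1, 27.7, 62.1 and 18.8 in KO early colons. Slc28a3, a nucleoside transporter, had 1462, 2636 and 2433 in KO late, against 632, 387, 1279 and 513 in KO early and 226, 187, 153, 168 and 172 in WT colons. Every KO early value of Slc28a3 was above every WT value and below every KO late value. Slfn5 and its antisense gene Slfn5os both had higher values in KO late colons (1.77 ± 0.30 and 1.70 ± 0.25), but they overlap on opposite strands and no source used here says whether counting took strand into account, so their reads cannot be assigned to either with certainty.

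Chemokines, which draw leukocytes into the mucosa, had the highest median of the 32 lists at 1.45. At an unadjusted p under 0.05, 7 of 14 tested were higher and 0 lower, beside 3.21% and 7.58% of all genes. Groups without overlap were seen for 2 of them, Cxcl16 and Cxcl11, beside 7.29% of all genes on the higher side. The promoters of 2 neutrophil chemoattractants, Cxcl1 and Cxcl2, are shown because both genes were progressing and both hold a match to the NF-kB motif GGGANNTTCC, searched on both strands in the 250 bases before the first transcript start listed (RefSeq, GRCm38.p6). Capitals mark the matches, where 2 overlapping matches, 1 on each strand, make a run of 11 bases.
Cxcl1 (chr5:90890995-90891244, plus strand): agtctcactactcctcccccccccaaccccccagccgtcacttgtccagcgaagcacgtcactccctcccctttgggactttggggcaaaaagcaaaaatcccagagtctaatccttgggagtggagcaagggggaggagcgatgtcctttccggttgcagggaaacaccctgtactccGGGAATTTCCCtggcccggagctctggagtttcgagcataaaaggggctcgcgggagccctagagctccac
Cxcl2 (chr5:90903649-90903898, plus strand): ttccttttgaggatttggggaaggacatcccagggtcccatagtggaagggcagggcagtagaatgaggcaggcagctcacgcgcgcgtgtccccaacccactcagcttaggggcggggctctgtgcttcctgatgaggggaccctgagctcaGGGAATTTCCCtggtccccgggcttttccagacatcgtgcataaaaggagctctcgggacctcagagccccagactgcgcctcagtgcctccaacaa
The match lay at -71 to -61 from the start in Cxcl1 and at -97 to -87 in Cxcl2. Of the 8 chemokine genes whose promoter was listed, 4 held a match (50.0%), against 1.22% of 14400 tested genes with a promoter. The 4 were Cxcl1, Cxcl2, Cxcl3 and Cxcl10, related genes that all lie on chromosome 5, so their matches need not be independent. In a list of 19 NF-kB targets and feedback genes, 2 of 14 promoters held a match. A match is a description of letters only.

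Cxcl1 had 194, 982 and 404 normalised reads in KO late colons, against 22.8, 116, 338 and 98.4 in KO early colons and 10.7, 23.8, 42, 10.9 and 26.5 in WT colons, and Cxcl2 had 207, 1382 and 439 normalised reads in KO late colons, against 14.3, 109, 536 and 58.6 in KO early colons and 7.4, 5.2, 3.8, 4.7 and 4.8 in WT colons. The KO early value of mouse 118 lay inside the KO late range for both, and the other 3 KO early colons lay below it. The differences were 2.12 ± 0.76 for Cxcl1 and 2.55 ± 0.89 for Cxcl2. Cxcl9, a ligand of CXCR3 on T cells, had 601, 157 and 468 normalised reads in KO late colons, against 89.4, 78, 193 and 96.3 in KO early colons and 46.9, 63.2, 42, 83.9 and 39.4 in WT colons. Of the other CXCR3 ligands, Cxcl10 differed by 1.59 ± 0.47 and Cxcl11 by 1.27 ± 0.38. Cxcl10 had 168, 60.8 and 161 normalised reads in KO late, against 35.4, 20.2, 97.9 and 31.4 in KO early and 36.2, 52, 80.3, 65.3 and 75.5 in WT colons. Its KO late minus WT was 0.98 and its KO early minus WT -0.61. Cxcl16, a membrane-bound chemokine, showed a like order, with 567, 409 and 535 normalised reads in KO late colons, against 153, 131, 284 and 278 in KO early colons and 448, 390.3, 501, 556 and 387 in WT colons. The KO late colons overlapped the WT colons and lay apart from the KO early colons, at a difference of 1.32 ± 0.29. Ccl20, which attracts CCR6-bearing cells, differed by 1.64 ± 0.68. The count was 4 of 14 without KO late mouse 50, 10 of 14 without KO early mouse 118 and 5 of 14 with the receptor reads as a covariate, with medians of 1.49, 1.84 and 1.35. The 19 NF-kB targets and feedback genes had a median of 0.31, with 3 higher and 0 lower, beside 3.21% and 7.58% of all genes. The 3 were Tnfaip3 (0.93 ± 0.32), Nfkbie (0.79 ± 0.32) and Tnip3 (0.90 ± 0.28), all of which restrain NF-kB. The count was 2 to 7 of 19 without single KO mice, highest without mouse 118. With the covariate it was 5 of 19, beside 826 of the 19145 genes tested.

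The interferon-inducible GTPases, which attack vacuoles of intracellular microbes, had a median of 0.73, with 5 of 16 higher and 0 lower at an unadjusted p under 0.05. Over all genes tested these shares were 3.21% and 7.58%. Gbp5 had 867, 499.6 and 592 normalised reads in KO late colons, against 117, 130.5, 404 and 343 in KO early colons and 77.4, 93.7, 102, 266 and 111 in WT colons, without overlap of the KO groups (1.56 ± 0.45). Gbp2 had 11198, 5566 and 13504 in KO late, against 3140.2, 1939, 5302 and 9292 in KO early and 1791, 1646, 1549, 5014 and 1102 in WT colons, a difference of 1.18 ± 0.55 with overlap. Gbp3, Gbp6 and Gbp10 differed by 1.13, 1.10 and 1.07. The paralogs of this family are alike in sequence, so reads may be shared among them. Ifit2, a classical interferon-stimulated gene that was higher in KO at both times, had 8183, 5864 and 9587 normalised reads in KO late colons, against 1855, 1801, 3739 and 4244 in KO early colons and 1025, 1179.9, 1944, 1293 and 946 in WT colons, a difference of 1.52 ± 0.34 without overlap. The GTPase count rested on single mice, with 2 of 16 higher without mouse 49, 57, 100 or 117 and 8 of 16 without mouse 120. It was 8 of 16 with the receptor reads as a covariate, and the median lay between 0.53 and 1.17 over 19 alternatives.

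S100a8 and S100a9, the subunits of calprotectin, had the largest differences among the 24 genes tested of the antimicrobial and IL-22 response list. S100a8 had 1416, 6615 and 4549 normalised reads in KO late colons, against 16, 90.7, 3945 and 240.1 in KO early colons and 0.8, 28.3, 2.5, 3.1 and 6.4 in WT colons. S100a9 had 463, 1366 and 1287 normalised reads in KO late colons, against 5.9, 27, 1379 and 32.1 in KO early colons and 0.0, 34.2, 2.5, 4.7 and 9.6 in WT colons. In both genes 3 KO early colons lay far below the KO late colons, while mouse 118 lay among the KO late values of S100a8 and just above those of S100a9. The SE was wide, with differences of 4.15 ± 1.38 and 4.10 ± 1.44. Of the neutrophil transcripts measured beside them, Csf3r had 34.7, 50.8 and 24.7 in KO late and 26.1, 14.2, 38.1 and 20.2 in KO early colons, and Retnlg 3.7, 22.5 and 1.0 in KO late and 0.8, 5.2, 31.1 and 0.0 in KO early colons. Retnlg was highest in KO early mouse 118 and in KO late mouse 50, which also had the highest S100a8 of the late group, and the part of neutrophil RNA in these values was not tested.

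Receptors and enzymes of the IL-22 and oncostatin M response showed smaller steps. Osmr, the oncostatin M receptor beta chain, had 1929, 1681 and 1756 normalised reads in KO late colons, against 429, 656, 1328 and 1213 in KO early colons and 97.9, 141, 80.3, 142 and 176 in WT colons. Steap4, a metalloreductase, had 3245, 2282 and 4339.8 normalised reads in KO late colons, against 1252, 724, 2727 and 1836 in KO early colons and 143, 145, 119.8, 188 and 172 in WT colons. Each KO early colon was above each WT colon for both genes, and the KO late values were higher again. The groups of Osmr did not overlap (1.12 ± 0.37) and those of Steap4 did (1.12 ± 0.37). The whole antimicrobial list of 24 genes was split, with 4 higher and 5 lower at an unadjusted p under 0.05 and a median of -0.07. Over all genes tested, 3.21% were higher and 7.58% lower. Without single KO mice the list had 4 to 6 higher and 2 to 7 lower, and with the receptor reads as a covariate 1 higher and 1 lower. On its lower side were Il18, an epithelial cytokine, with 507, 737 and 445 in KO late, 1201, 1087, 775 and 857 in KO early and 896, 906, 1099.6, 931 and 487 in WT colons, and Saa1 (-0.79 ± 0.33), an acute-phase protein. The IL-22 receptor gene Il22ra1 had 1239, 1313 and 2136 in KO late, 1641, 790.4, 1938 and 1940.1 in KO early and 2518, 1660.1, 2808, 2685 and 1753 in WT colons.

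Genes of wounded and fetal-like epithelium had a median of 0.66, with 7 of 19 higher and 0 lower at that p. Of all genes tested, 3.21% were higher and 7.58% lower. The count of the list was 5 to 8 without single KO mice and 9, with a median of 0.73, with the receptor covariate. Sprr1a, a precursor of the cornified envelope, had 1040.5, 1130.0 and 1599.8 normalised reads in KO late colons, against 212, 366, 611 and 535 in KO early colons and 186, 166, 266, 227 and 203 in WT colons. Anxa1, annexin A1, had 7546, 11170.3 and 11443 in KO late, against 2982, 3692, 6916 and 5307 in KO early and 2360.5, 1817, 2499.9, 1786 and 1716 in WT colons. Both were free of overlap between KO late and KO early, at 1.63 ± 0.32 and 1.14 ± 0.30. Sprr2h, of the same family as Sprr1a, had 164, 436 and 344 normalised reads in KO late colons, against 27, 36, 235 and 96.3 in KO early colons and 3.3, 5.9, 1.3, 0.0 and 14.5 in WT colons. Mouse 118 lay between the KO late values of mice 49 and 57, for a difference of 2.06 ± 0.85. Plaur, the urokinase receptor, had 1021, 1735 and 2005 in KO late and 209, 268, 1165 and 334 in KO early colons (1.99 ± 0.48), and mouse 118 again lay within the late range. Areg and Hbegf, both ligands of the EGF receptor, differed by 1.40 ± 0.32 and 1.24 ± 0.29 without overlap, yet neither was called in KO minus WT. Hbegf had 2693, 2915 and 4574 normalised reads in KO late colons, against 1041, 1210.4, 1624 and 1835 in KO early colons and 2474, 1899, 3466, 2467 and 1759.9 in WT colons. The KO early colons lay below all KO late colons and, but for 1 value, below the WT colons.

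On the lower side, the progressing genes included some of absorptive cells and of bile acid handling. Slc10a2, the apical bile acid importer, had 147, 128 and 182 normalised reads in KO late colons, against 885, 293, 309 and 885 in KO early colons and 1076, 1013, 789, 1225 and 1529 in WT colons. Slc51a, a subunit of the basolateral bile acid exporter, had 76.8, 66.6 and 87.8 normalised reads in KO late colons, against 423, 124, 351 and 331 in KO early colons and 305, 233, 249.7, 501 and 411 in WT colons. Neither overlapped between the KO groups, at -1.77 ± 0.39 and -1.85 ± 0.38, and only Slc10a2 was called in KO minus WT. Fabp6, the intracellular bile acid binder, had 28.5, 162 and 53.3 normalised reads in KO late colons, against 409, 148, 133 and 485 in KO early colons and 37, 90.0, 77.7, 115 and 41 in WT colons. Here each KO early colon was above each WT colon, and the difference of -1.97 ± 0.61 went with KO late values on both sides of the WT range. The bile acid receptor gene Nr1h4 differed by -0.63 ± 0.23. Of 8 bile acid genes tested 4 were lower and 0 higher at an unadjusted p under 0.05, with a median of -0.56, and the count was 3 to 5 without single KO mice and 4 with the receptor reads as a covariate. The shares over all genes were 7.58% lower and 3.21% higher.

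Of 23 absorptive colonocyte genes, 8 were lower and 0 higher at an unadjusted p under 0.05, beside 7.58% and 3.21% of all genes. Their median was -0.37 and became -0.09 with the receptor reads as a covariate, when 3 were lower and 1 higher. The count was 4 without KO late mouse 49 and 10 without KO early mouse 117. By library the median log2 level of the list relative to WT was -1.04, -0.94 and 0.09 in KO late colons, against 0.23, -0.98, -0.59 and 0.02 in KO early colons. KO late mouse 57 thus stood above mice 49 and 50, and KO early mouse 117 was low, as both were in the epithelial identity genes. Mptx1, a mucosal pentraxin, had 83, 287 and 198 normalised reads in KO late colons, against 4895, 6781, 179 and 4494 in KO early colons and 21738, 21974, 53568, 25996 and 30330.1 in WT colons. The KO early colons of mice 100, 117 and 120 lay between the WT and the KO late range and mouse 118 lay within the KO late range, for a difference of -3.75 ± 0.94. Without mouse 118 Mptx1 passed the test at -4.97 (adjusted p = 0.000551, limma), and it did not pass when any other single KO mouse was left out. Slc37a2 had 222, 169 and 114 normalised reads in KO late colons, against 1824, 268, 533 and 695 in KO early colons and 4498, 2014, 2652, 5845 and 1095 in WT colons, without overlap between KO late and KO early (-2.0 ± 0.60). Guca2a, guanylin, had 959, 559 and 2552 in KO late, against 4825, 1207, 1954 and 2886 in KO early and 7376, 4229, 8931, 8272 and 4976 in WT colons. Slc26a3, the chloride-bicarbonate exchanger of colonocytes, and Car4, a carbonic anhydrase, differed by -1.12 ± 0.39 and -1.05 ± 0.36, without being called in KO minus WT.

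Detoxification also held progressing genes. Sult1a1, a phenol sulfotransferase, had 193, 35 and 32.5 normalised reads in KO late colons, against 1211, 552, 65.2 and 918 in KO early colons and 1483, 1649.7, 2006, 1803 and 1268 in WT colons, a difference of -2.87 ± 0.82 with mouse 118 inside the late range. Ces2a, a carboxylesterase, differed by -0.85 ± 0.31. Of 28 xenobiotic and retinoid genes 6 were lower and 0 higher, beside 7.58% and 3.21% of all genes, with a median of -0.43. That count was 1 without KO late mouse 50, 3 without KO early mouse 100 or 120, 12 without KO late mouse 57, 10 without mouse 118 and 3 with the covariate. Of 20 fatty acid oxidation and ketogenesis genes 3 were lower and 0 higher, beside 7.58% and 3.21% of all genes, with a median of -0.33 that was -0.02 with the receptor reads as a covariate. That count was 0 without mouse 50 and 9 without mouse 57. Selenbp1, a selenium-binding protein of differentiated colonocytes, had 382, 219.8 and 798 in KO late, against 5887, 1160.2, 1212 and 2233 in KO early and 5352, 2452, 4513, 5722 and 2305 in WT colons.

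Secretory and chemosensory lineages gave single genes. Ang4, a crypt base granule antimicrobial, had 104, 28.3 and 47.3 normalised reads in KO late colons, against 429, 829, 39.6 and 211 in KO early colons and 4765, 2686, 8222, 4218 and 4684 in WT colons. Most of its distance from WT was present at 2 weeks (-4.29), and the distance was larger at 8 weeks (-6.44), with mouse 118 inside the KO late range. Mmp7, a matrix protease of Paneth cell granules, had the opposite course, with 80.5, 70.8 and 148 normalised reads in KO late colons, against 19.4, 45.7, 59.8 and 44 in KO early colons and 6.6, 16.4, 15.3, 6.2 and 17.7 in WT colons. Trpm5, the cation channel of tuft cells, had 61.9, 63.3 and 52.3 in KO late, against 102, 149, 89.3 and 139 in KO early and 221, 163, 199, 233 and 187 in WT colons, without overlap. Of 11 tuft cell genes that was the only lower one at an unadjusted p under 0.05, with Gnat3 (0.67 ± 0.30) the only higher one and a median of 0.11 that was -0.04 with the receptor covariate. Over all genes tested 7.58% were lower and 3.21% higher, so these counts say nothing of tuft cells as a group. Among 16 goblet cell genes 2 were lower, beside 7.58% of all genes, and without mouse 50 or mouse 120 the count was 0. The 2 were Klk1 (-1.09 ± 0.43) and Retnlb (-0.98 ± 0.43). Muc2, the main mucin, differed by -0.04 ± 0.49 with an interval of -1.10 to 1.02. The goblet median of -0.28 became 0.25 with the receptor reads as a covariate.

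The stable genes are those whose distance from WT was called and whose interval between 8 and 2 weeks was bounded. They were 38.0% of the 821, beside 39.5% of all genes tested, so their number is no trait of genes called in KO minus WT. The examples were taken after their values were seen, as the ones with the largest KO minus WT among bounded genes of at least 5 reads per M. Pla2g2a, which encodes a secreted antibacterial phospholipase and carries a natural disruption in C57BL/6 mice, had 112, 149.9 and 252 normalised reads in KO late colons, against 137, 176, 225 and 173 in KO early colons and 35.4, 26, 22.9, 24.9 and 20.1 in WT colons. All KO colons were above all WT colons, and KO late minus KO early was -0.12 ± 0.30 with an interval of -0.76 to 0.53. Ly6a, the surface protein Sca-1, had 10309.6, 11954 and 14014 in KO late, 8331, 8336, 15101 and 13892 in KO early and 2201, 1636, 3124, 5522 and 1867 in WT colons, with an interval of -0.62 to 0.87 between the times. Dmbt1, a mucosal scavenger protein that binds bacteria, had 85924, 95775 and 157034 in KO late, 94547, 101824, 183466 and 141594 in KO early and 43670.0, 30533, 36301, 38602 and 28899.7 in WT colons. Its interval was -0.97 to 0.56, and that of Cd38, an NAD-consuming ectoenzyme higher by 1.74 in KO, was -0.82 to 0.42.

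On the lower side Abcb1a, the efflux pump P-glycoprotein, had 5897, 5220.4 and 6196 normalised reads in KO late colons, against 11230.3, 3965, 3039 and 9068 in KO early colons and 19976, 18973, 21340.0, 22927 and 19457 in WT colons. Its KO values scattered over more than the difference between the times, which was -0.04 ± 0.38. Il15, a cytokine that sustains intraepithelial lymphocytes, had 1072, 740.3 and 642 in KO late, 1047, 614, 492 and 1389 in KO early and 3246, 1955, 2580.2, 4012 and 1716 in WT colons, with an interval of -0.84 to 0.78. Reg4, a regenerating family lectin, and Pla2g4c, a cytosolic phospholipase, had intervals of -0.99 to 0.76 and -0.98 to 0.61.

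Some of the largest KO minus WT differences could not be placed. Clca4b, of the calcium-activated chloride channel regulator family, was higher in KO by 7.35, with 40109, 73441 and 103359.7 normalised reads in KO late colons, against 18655, 26802, 83854 and 49379.7 in KO early colons and 372, 256, 312, 275 and 276 in WT colons. The distance from WT was present in every KO colon, but the difference between the times was 0.83 ± 0.44 with an interval of -0.13 to 1.78. Reg3b, an antibacterial lectin, had 25180.1, 71601 and 149373 in KO late, 18402, 73672, 127632 and 54106 in KO early and 701, 950.1, 758, 929.6 and 3606 in WT colons, and an interval of -1.27 to 1.72. Nos2, the inducible nitric oxide synthase, had an interval of -0.63 to 1.13 and Reg3g of -0.55 to 2.45. Lrg1 had 61.9, 137 and 362 normalised reads in KO late colons, against 103, 92.2, 1836 and 125 in KO early colons and 3.3, 1.5, 5.1, 0.0 and 3.2 in WT colons, where a single KO early colon, mouse 118, lay above the others. MHC class I and II genes gave none at an unadjusted p under 0.05 (0 of 15 and 0 of 8), with medians of -0.13 and -0.20, and of them 4 and 1 were bounded. These medians became 0.54 and 0.93 with the receptor reads as a covariate, and leaving out single KO mice gave -0.41 to 0.07 and -0.57 to 0.13, so they were not stable in sign.

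Fading genes were few, 24 of 821 (2.92%), near the 2.5% that went the opposite way among genes not called in KO minus WT. The fading genes below are therefore single examples, not a group shown to return towards WT. Among the 15 fading genes that were lower in KO, 3 belonged to the list of interferon-stimulated genes, Rsad2, Ifit1 and Ifit3. Cmpk2 and Ddx60, also known to be induced by interferon, and Trim30d were not on that list. The promoters of Rsad2, Ifit1 and Ifit3, beside that of the progressing gene Gbp5, are shown because they hold matches to an interferon-stimulated response element, searched as GAAANNGAAA on both strands in the 250 bases before the first start listed (RefSeq, GRCm38.p6). Capitals mark the matches, which all lay on the minus strand relative to the gene and so read as the reverse complement.
Rsad2 (chr12:26456453-26456702, minus strand): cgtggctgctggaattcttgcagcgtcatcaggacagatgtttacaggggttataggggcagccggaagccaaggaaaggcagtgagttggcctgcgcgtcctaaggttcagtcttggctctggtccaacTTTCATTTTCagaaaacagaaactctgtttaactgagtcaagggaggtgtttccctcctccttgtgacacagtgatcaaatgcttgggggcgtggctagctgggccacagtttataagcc
Ifit1 (chr19:34640639-34640888, plus strand): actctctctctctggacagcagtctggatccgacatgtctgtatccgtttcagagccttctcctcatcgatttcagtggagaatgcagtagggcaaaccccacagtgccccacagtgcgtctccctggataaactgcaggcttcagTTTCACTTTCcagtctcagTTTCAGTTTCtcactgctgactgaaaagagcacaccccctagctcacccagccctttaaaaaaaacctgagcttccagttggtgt
Ifit3 (chr19:34583279-34583528, plus strand): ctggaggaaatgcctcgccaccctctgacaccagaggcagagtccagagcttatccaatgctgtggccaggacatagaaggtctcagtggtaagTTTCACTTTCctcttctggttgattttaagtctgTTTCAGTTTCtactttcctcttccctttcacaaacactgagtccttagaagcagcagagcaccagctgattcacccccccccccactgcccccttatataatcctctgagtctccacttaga
Gbp5 (chr3:142496684-142496933, plus strand): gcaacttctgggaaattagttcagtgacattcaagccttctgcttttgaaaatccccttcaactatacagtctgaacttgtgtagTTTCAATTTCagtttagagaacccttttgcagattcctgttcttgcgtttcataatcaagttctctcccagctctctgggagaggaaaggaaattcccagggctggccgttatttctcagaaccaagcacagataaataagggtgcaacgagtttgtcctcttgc
The match lay at -120 to -111 in Rsad2, at -104 to -95 and -85 to -76 in Ifit1, at -156 to -147 and -122 to -113 in Ifit3 and at -165 to -156 in Gbp5. Of 20 interferon-stimulated genes whose promoter was listed, 9 held a match (45.0%), and so did 9 of 9 interferon-inducible GTPases. The share was 2.74% of the 14400 tested genes with a promoter. The 9 GTPase genes are paralogs on chromosomes 3 and 11, so their matches need not be independent. Among the interferon-stimulated genes higher in KO late colons at an unadjusted p under 0.05, 3 of 8 held a match, and among the others 6 of 12. Cmpk2, the neighbour of Rsad2 in the genome, held no match in this window.

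Rsad2, which encodes the antiviral enzyme viperin, had 1361, 1429.8 and 1162 normalised reads in KO late colons, against 559, 323, 309 and 873 in KO early colons and 1678, 1448, 2687, 3078 and 1686 in WT colons. The 4 KO early colons lay below all other colons, and the 3 KO late colons lay between them and the WT colons. KO early minus WT was -2.10 and KO late minus WT -0.62, for a difference of 1.48 ± 0.33 (adjusted p = 0.254, limma). Ifit1, a sensor of foreign RNA ends, had 2113, 1015 and 2058 normalised reads in KO late colons, against 1004, 632, 605 and 989 in KO early colons and 1976, 1728, 3681, 3219.5 and 2337 in WT colons, a difference of 1.06 ± 0.30 without overlap of the KO groups. Ifit3, Cmpk2 and Ddx60 differed by 0.85 ± 0.29, 0.79 ± 0.25 and 1.10 ± 0.47. Without a KO minus WT call, Mx2, an antiviral GTPase, showed the same order, with 307, 179.9 and 234 normalised reads in KO late colons, against 128, 140.2, 75.3 and 124 in KO early colons and 203, 204, 308, 387 and 253 in WT colons. Usp18, a protease that damps interferon signalling, had 576, 439.7 and 721 in KO late, 315, 200.2, 259 and 228 in KO early and 461, 291, 601, 445 and 346 in WT colons. Its KO late colons lay above all KO early colons and within the WT range or above it. Ifi44 and Cd274, which encodes the checkpoint ligand PD-L1, differed by 1.35 ± 0.29 and 1.36 ± 0.42.

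Of the 28 interferon-stimulated genes, 10 were higher and 0 lower at an unadjusted p under 0.05, against 3.21% and 7.58% of all genes. Those 10 had no overlap of the groups, against 7.29% of all genes higher without overlap. The list median of KO late minus WT was -0.21 and that of KO early minus WT -0.67. By library the median log2 level of the list relative to the WT mean was -0.10, -0.46 and -0.004 in KO late colons. It was -0.39, -0.85, -0.87 and -0.22 in KO early colons and 0.07, -0.57, 0.41, 0.47 and -0.38 in WT colons. All KO late colons thus lay within the WT range, as did KO early mice 100 and 120, while KO early mice 117 and 118 lay below it. Only Ifit2 of the list was progressing, and 3 were fading. With the receptor reads as a covariate 19 of 28 were higher with a median of 0.93, and Usp18 and Isg15 then passed the test at adjusted p of 0.0115 and 0.0274. Without single KO mice it was 8 to 11 of 28, with medians of 0.28 to 0.65.

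The 9 fading genes that were higher in KO included transporters and secreted enzymes. Slc7a9, the light chain of the cystine and dibasic amino acid transporter, had 105, 236 and 184 normalised reads in KO late colons, against 415, 289.5, 647 and 516 in KO early colons and 135, 120.4, 117, 119.7 and 146 in WT colons. KO early colons were above all WT colons and all KO late colons, with KO early minus WT at 1.81 and KO late minus WT at 0.38. Slc5a9, a sodium-coupled sugar transporter, had 419.9, 533 and 525 normalised reads in KO late colons, against 696, 1039, 1296 and 989.6 in KO early colons and 235, 206, 136, 183 and 159 in WT colons, so that KO late colons were also above all WT colons. Pla2g5, a secreted phospholipase, had 318, 407 and 494 in KO late, 694, 832, 813 and 629.5 in KO early and 348, 208, 181, 189.7 and 193 in WT colons. The KO groups did not overlap for these 3, at -1.43 ± 0.31, -1.0 ± 0.23 and -0.88 ± 0.23. Tfrc, the transferrin receptor, had 3759, 3964 and 5468 in KO late, 8563, 8985, 6589 and 6298 in KO early and 2190.1, 2425, 3219.9, 1833 and 2285 in WT colons. Gpx2, a gut glutathione peroxidase, Saa3, an acute-phase apolipoprotein, and Fut2, which adds the terminal fucose of mucosal glycans, differed by -1.06 ± 0.36, -0.97 ± 0.34 and -0.96 ± 0.39. Sulf2 and Lgmn, a sulfatase of heparan sulfate and the protease legumain, were the remaining ones, at -0.70 ± 0.22 and -0.79 ± 0.29.

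**Figure D3:**
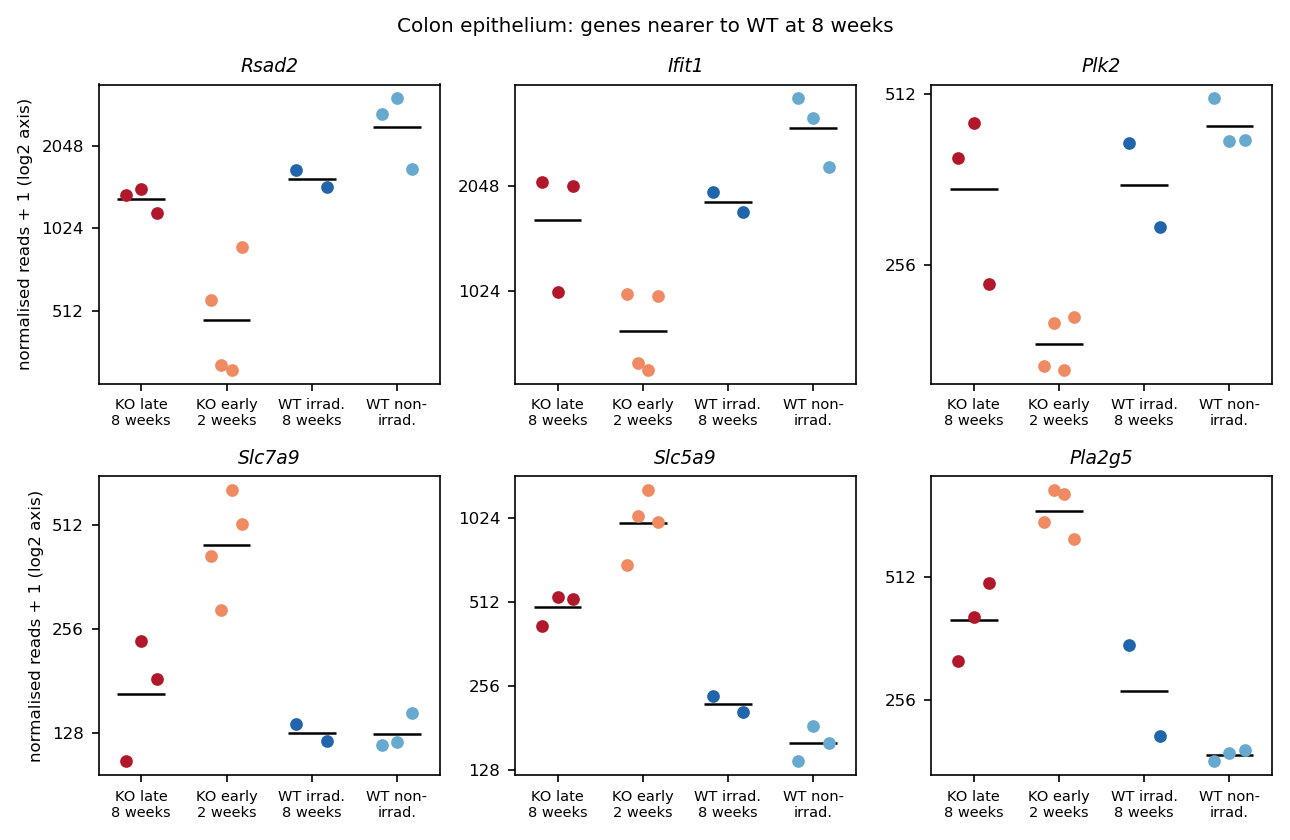
Dots are single colons and lines are group means on the log2 scale, with normalised reads + 1 on a log2 vertical axis, for Rsad2, Ifit1, Plk2, Slc7a9, Slc5a9 and Pla2g5 in the same 4 groups. KO early colons are lowest for the first 3 genes and highest for the other 3, and KO late colons lie between them and WT or overlap the WT values.

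Other KO-lower fading genes were Plk2, a polo-like kinase among p53 targets, with 394, 455 and 236 normalised reads in KO late colons, against 169, 202, 166 and 207 in KO early colons and 419, 298, 503, 423 and 424 in WT colons and no overlap of the KO groups, and Chrm3, the muscarinic receptor M3 that serves acetylcholine signals to the epithelium, at 0.56 ± 0.25. Vldlr, Adgrl2, Ttbk2, Abtb2, Slc43a3 and the predicted E330011O21Rik were also among them, with differences between 0.52 and 1.04.

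Some groups of genes had lower values in KO late than in KO early colons with few or no KO minus WT calls. All 30 cell cycle genes tested had a lower mean in KO late colons, 10 of them at an unadjusted p under 0.05, beside 7.58% of all genes. The median of the 30 was -0.58. For that list KO late minus WT had a median of -0.13 and KO early minus WT of 0.39. Mcm2, a subunit of the replicative helicase, had 76.8, 44.1 and 88.8 normalised reads in KO late colons, against 152, 166, 200.4 and 178 in KO early colons and 137, 80.3, 153, 107 and 75.5 in WT colons. The KO late colons lay below all KO early colons, at -1.35 ± 0.32, and within or below the WT range. Mcm5, Mcm6 and Mcm7 differed by -1.06 ± 0.29, -0.92 ± 0.30 and -0.82 ± 0.28 without overlap, while Mki67, a general marker of cycling cells, differed by -0.36 ± 0.29 with overlap. The count of lower cell cycle genes was 4 without KO late mouse 50, 6 without KO early mouse 118 or 120, 14 without KO early mouse 100 and 7 with the covariate, and the median lay between -0.71 and -0.44 over 19 alternatives. Of 19 stem and crypt genes 4 were lower and 1 higher, beside 7.58% and 3.21% of all genes. That balance turned with single mice, with 1 lower and 0 higher without mouse 50 and 1 lower and 3 higher without mouse 57. With the covariate it was 1 lower and 1 higher. Sox9, a transcription factor of the crypt base, had 50.8, 30.8 and 70 in KO late, 117, 85.5, 67.6 and 93.5 in KO early and 153, 88.5, 172, 194 and 124 in WT colons. Olfm4, olfactomedin 4, had 64.4, 87.4 and 32.5 in KO late, 30.4, 28.5, 40.4 and 23.7 in KO early and 18.9, 36.4, 33.1, 21.8 and 53 in WT colons, and was the higher one. Lgr5, the stem cell receptor, had 386, 415 and 222 in KO late, 186, 267, 231 and 222 in KO early and 235, 289.9, 217, 202 and 297 in WT colons (0.55 ± 0.26).

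All 21 cholesterol synthesis genes likewise had lower means in KO late colons, 7 at an unadjusted p under 0.05, beside 7.58% of all genes. Their median was -0.50. KO late minus WT had a median of -0.12 and KO early minus WT of 0.56. Dhcr7, which makes cholesterol from its last precursor, had 291, 272 and 352 in KO late, 659, 371, 437 and 607 in KO early and 761, 445, 888, 835 and 554 in WT colons. The KO late colons lay below all other colons. With the receptor reads as a covariate the median was -0.24 and 0 of 21 genes were lower at that p, and without the covariate the count was 0 without mouse 50, 1 without mouse 100, 2 without mouse 49 and 13 without mouse 57. It thus rests on single mice and on the fit without the covariate. Of 22 unfolded protein response genes 4 were lower and 1 higher, beside 7.58% and 3.21% of all genes, with Creld2 at -1.26 ± 0.48. The covariate gave 0 lower and 3 higher, and leaving out single KO mice gave 0 lower (without mouse 49, 50 or 118) to 8 lower (without mouse 57). Of 20 genes of mucin-type glycosylation 5 were lower, beside 7.58% of all genes, among them Fut2, Fut4 and B4galnt2. That count was 0 with the covariate and 1 without mouse 49. It was 2 without mouse 50, 3 without mouse 100, 118 or 120 and 8 without mouse 57. Atf3, a stress factor also induced by tissue dissociation, differed by 1.15 ± 0.36. The list of immediate early and dissociation genes had a median of 0.59 and 2 of 17 higher, beside 3.21% of all genes. With the covariate 10 of 17 were higher, beside 826 of the 19145 genes tested. Without single KO mice 1 to 7 were higher.

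**Figure D4:**
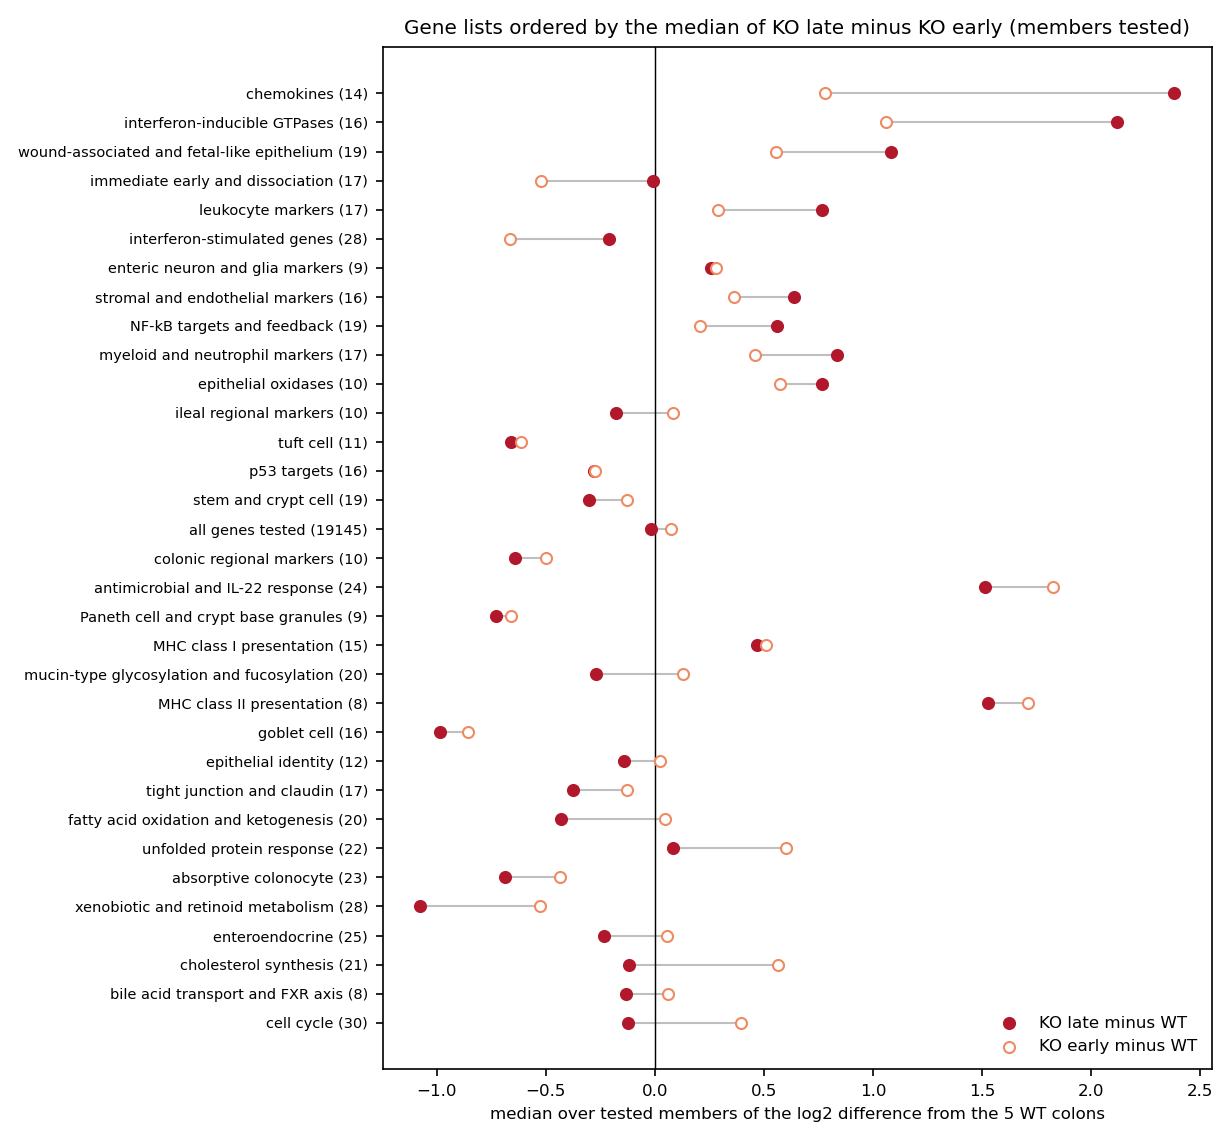
Filled and open circles are the median log2 difference of KO late and of KO early colons from the 5 WT colons over the tested members of each of 32 lists and of all genes, ordered down the page by the median of KO late minus KO early. Chemokines (2.38 and 0.78) and interferon-inducible GTPases (2.12 and 1.06) lie furthest apart on the higher side, and cell cycle (-0.13 and 0.39) and cholesterol synthesis (-0.12 and 0.56) cross 0.

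KO early mouse 118 stood apart from the other KO early colons towards the KO late ones in several of the genes above. It had 3945 normalised reads of S100a8 and 3078 of Cxcl5, a neutrophil chemokine with 1483, 2259 and 1439 in KO late and 46.4, 443, 3078 and 433 in KO early colons. Without it 16 genes passed the test, 12 higher and 4 lower, against 1 with it. The 12 included Ccdc88b, Plaur, Sema7a, Slc28a3, Aldh1a3, Marcksl1 and Gsap, and the 4 were Mptx1, Pyy, Sult1a1 and Chga. At an unadjusted p under 0.05 the counts without it were 470 higher and 1107 lower of 19074 genes. Its median over 12 epithelial identity genes was 0.22 on the log2 scale relative to the mean of the 5 WT colons, within the range of the other KO early colons (-0.54 to 0.43), and its receptor reads of 532 per M were also within theirs. Over 17 myeloid and neutrophil markers its median was 1.00, against 0.32, 0.33 and 0.30 in KO early mice 100, 117 and 120. KO late colons had 0.87, 0.98 and 0.50. The part of such cells in the values of mouse 118 was not tested.

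**Figure D5:**
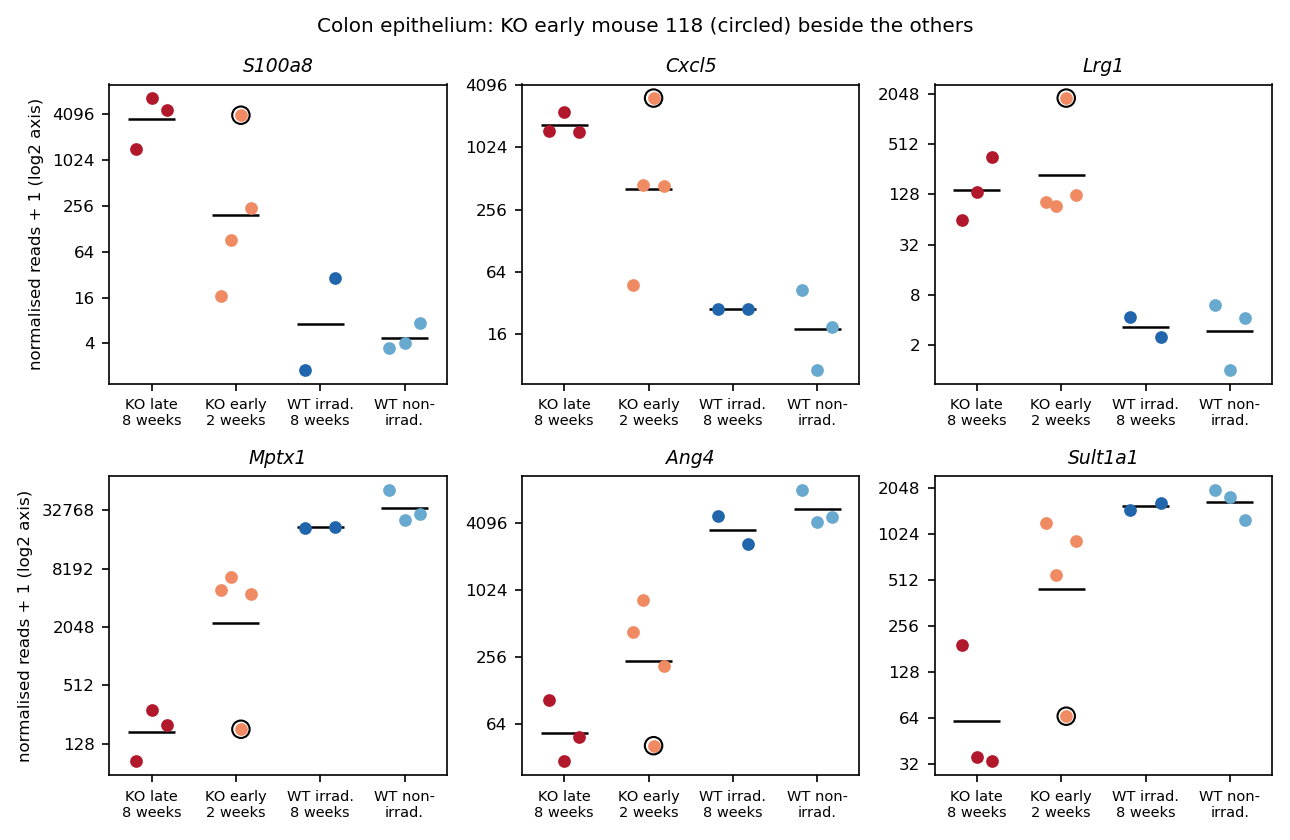
Dots are single colons and lines are group means on the log2 scale, with normalised reads + 1 on a log2 vertical axis, for S100a8, Cxcl5, Lrg1, Mptx1, Ang4 and Sult1a1, and circles mark KO early mouse 118. The circled value lies within or beyond the KO late range in these 6 genes, chosen for it after their values were seen.

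Whether a difference was particular to the colon was tested against the ileum of the same mice, as the colon difference minus the ileum difference over all 24 libraries. At an adjusted p under 0.05 (limma) 491 of 19588 genes (2.51%) differed, and 5605 (28.6%) in the fit with the mouse as a block, which takes the pairing of colon and ileum into account. Leaving out 1 KO mouse gave 0 to 366 calls without the block, so these calls depend on single mice. In the ileum alone, 24.5% of genes had an unadjusted p under 0.05. Among the genes above, the colon difference exceeded that of ileum by 3.60 ± 0.66 for Il1a, 3.52 ± 0.66 for Sema3e and 2.36 ± 0.43 for Tnfrsf11b (adjusted p = 0.0306 for each, and 0.0019, 0.00107 and 0.00228 with the block). In the ileum Il1a had 10.7, 13.4 and 12.3 normalised reads in KO late, against 11.1, 18.7, 31.2 and 11.5 in KO early samples. For Pyy the colon difference minus the ileum difference was -3.52 ± 0.82 (adjusted p = 0.0355, limma, and 0.00447 with the block). Oat, ornithine aminotransferase, had 419.9, 381 and 621 in KO late colons, against 1110.5, 919, 876 and 1124 in KO early colons, and 6994, 5613 and 7383 in KO late ileum, against 4702, 3713, 3808 and 2428 in KO early ileum. The colon value was lower and the ileum value higher in KO late mice, and the difference between the segments was -2.0 ± 0.32 (adjusted p = 0.0306, limma). S100g, the calcium-binding protein calbindin-D9k, showed the same opposition, with 139, 69.1 and 55.2 in KO late colons, against 430.1, 85.5, 172 and 493 in KO early colons, and 76.1, 56.9 and 184 in KO late ileum, against 35.5, 22.0, 32.2 and 31.3 in KO early ileum. The 30 cell cycle genes had medians of opposite sign, -0.58 in colon and 0.95 in ileum, and Mcm2 passed the test of the difference (-2.22 ± 0.53, adjusted p = 0.0372, limma, and 0.00228 with the block).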

How the data were processed

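RNA of sorted epithelium was sequenced as 50-bp single-end reads on 3 lanes after ribosomal RNA removal from 100 ng of RNA, per the labels' protocols, while the molecule label says polyA RNA. The submitters' processing notes name bcl2fastq, HISAT 0.1.6, HOMER and the build mm9, and whether counting used strand is not given in any source used here. The authors deposited 1 table of 24421 rows, whose values are a signal, reads per gene divided by a size factor per library and rounded to 1 decimal. Whole reads could be recovered for all 12 colon libraries: with a tolerance of 0.052 normalised reads, 100% of values below 60 were whole multiples of 1 read.

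Genes reaching 10 normalised reads in 2 or more colon libraries were tested with limma 3.58.1 (R 4.3.3; trended prior) on log2(value + 1), a scale that understates changes of low genes, with all 12 colon libraries in 4 groups and p-values adjusted by Benjamini and Hochberg. The interval is the fit's 95% interval. The difference of colon and ileum used all 24 libraries. A replicate block by mouse was added there, since the labels give both tissues the same mouse number. Over 10 mice, the correlation of colon and ileum deviations from their group means had a median of 0.22, with 5 above 0.1. edgeR 4.0.16 and DESeq2 1.42.0 on the recovered reads, other pseudocounts, filters and scalings, quality weights, a covariate of receptor reads, and fits without each mouse were alternatives. The limma fit was tried on simulated counts with 1 dispersion shared by all genes and no outlying mouse. That trial does not cover the uneven libraries seen here. KO late and KO early share no mouse number, and replicate colons (r of 0.951 to 0.981 over 9 KO pairs) were not copies of 1 library. The p-values measure the spread between single mice.

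The members and the 32 gene lists (557 genes, 530 tested) were chosen with earlier results of these data known. Genes named are those called, the 12 higher and 12 lower of smallest p without overlap and with at least 5 reads per M, 2 per list, the 8 higher and 8 lower of largest KO minus WT, 3 per direction of largest tissue difference, and a preset list. Other list members with an unadjusted p under 0.05, the fading and the bounded genes, and those chosen to show mouse 118 or cell markers were named after their values were seen. Promoters came from RefSeq (GRCm38.p6), apart from the mm9 of the table. Colon libraries held 8.32 to 18.6 M reads, and 1 read was worth 0.698 to 1.55 normalised reads, which limits the precision of low genes most. Hmgcs1 and Ccl28 are listed at 0 in all libraries and were not tested. A few genes are not reported here.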

Additional observations from a re-analysis of the deposited data

Results flagged for a closer look

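Of 115 values examined for a colon far from the rest of the KO early group, 5 stood apart, where chance gives about 1 in 20. They were Pyy in mouse 120 (81.7 normalised reads), Tnip3 in mouse 100 (1825), Mptx1 in mouse 118 (179.4), Lrg1 in mouse 118 (1836), and the share of reads in Rn45s, the ribosomal RNA precursor, in mouse 100 (10.03%).

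The log2 difference of KO late from KO early in colon minus that in ileum was positive, at an adjusted p of 0.0306 to 0.0495 (limma), for Klrb1b (3.83), Serpinb11 (3.82), Il1a (3.6), Sema3e (3.52), Ccdc88b (3.29), Cxcl9 (2.89), Tnfrsf11b (2.36), Slfn5 (1.99), Osmr (1.92), Slfn5os (1.9), Tbc1d9 (1.6) and Tnip3 (1.45). For Klrb1b the ileum part was -3.00, so most of its value lay in the ileum. The same measure was negative for Bex1 (-3.7), Pyy (-3.52), S100g (-3.14), Kcne3 (-2.51), Nop16 (-2.37), Mcm2 (-2.22), Gart (-2.07), Oat (-2), Cldn2 (-1.63) and Creg1 (-1.55). Bex1 and Klrb1b are low genes, and Klrb1b, a receptor of natural killer cells, marks other cells than the epithelium. Leaving out single KO mice gave 0 to 366 such calls in all.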

How the results depend on the processing

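Whether KO late differed from KO early in single genes depended on the test. Against 1 gene called by limma, no filter on low values, the filter of at least 50 normalised reads in 3 libraries and edgeR each gave 0 (with 2341, 1717 and 2096 at an unadjusted p under 0.05), the 7 KO libraries alone 3, scaling to reads per M without Rn45s 6, the receptor covariate 9, all 24 libraries with 1 spread 16 (added after seeing the data), DESeq2 213 and array quality weights 7112, with weights of 0.178 to 3.53 per library. Without single KO mice it gave 0 to 16, with 16 only without mouse 118. Bounded genes numbered 5620 to 6973 without single mice and 12550 with the covariate. For KO minus WT, 442 genes were called with the covariate (92 progressing, 13 fading, 176 bounded, 161 undetermined), 112 with irradiated WT mice alone (37, 4, 24 and 47 in that order), and 1849 by DESeq2. Without single mice it was 404 (without WT mouse 73) to 6003 (without WT mouse 75), with 73 to 1540 progressing, 11 to 41 fading, 106 to 2012 bounded and 171 to 2410 undetermined. As shares of the genes called, over 17 alternatives, 13.7% to 41.7% were progressing and 0.683% to 6.24% fading. The tissue difference called 5605 genes with the replicate block, 111 by edgeR and 1070 by DESeq2 on 23 libraries (added after seeing the data), and 0 to 366 without single mice. The causes were not tested.

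Over 19 alternatives Pyy differed by -3.85 to -2.56, and it passed the test in 11 of them. List medians lay between 1.13 and 1.84 for chemokines, 0.53 and 1.17 for interferon-inducible GTPases, 0.22 and 0.93 for interferon-stimulated genes, and -0.73 and -0.24 for cholesterol synthesis. With the covariate the medians of epithelial identity (-0.29, then 0.23), tight junction (-0.31, then 0.16), glycosylation (-0.15, then 0.12), stromal (0.41, then -0.18) and myeloid markers (0.21, then -0.23) changed sign.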
